A study of Homo sapiens with 12 samples.

Results

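Drug export and drug modification were followed through 10 genes in HK-2 cells, which are immortalised epithelial cells of the human kidney's proximal tubule, exposed to a compound that the labels call Di. These are 10 of the 19775 genes with a probe set of their own on the array: the efflux pumps ABCB1, ABCC1, ABCC2, ABCC3, ABCC4, ABCC5 and ABCG2, the epoxide hydrolase EPHX1, the UDP-glucose dehydrogenase UGDH, and PIR. They were chosen by name, with earlier results of these data known. Each is represented by 1 probe set, where possible without the suffix _x_at that marks possible cross-hybridisation. Among those, it is the one with the highest mean over the 12 arrays. The gene PIR encodes pirin, an iron-binding nuclear protein that is neither a pump nor a conjugating enzyme, and EPHX1 adds water rather than a conjugate.

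The 4 groups are HK-2 cells exposed to Di for 48 h, their vehicle controls at 48 h, cells exposed to Di for 12 h, and their vehicle controls at 12 h, with 3 arrays each that the labels call biological replicates. All cells shared one medium, supplemented with EGF, hydrocortisone, insulin, transferrin and selenite. The dose and the chemical identity of Di, and the vehicle, are not given in the sources used here. HK-2 is a single immortalised line, and what separates its replicates is not stated, so p-values measure the spread between these arrays.

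Cells remove foreign compounds in steps. Enzymes such as EPHX1 open reactive epoxides, transferases attach glucuronate, sulfate or glutathione, and ATP-driven pumps of the ABC family carry the drugs or their conjugates out across the membrane. UGDH makes UDP-glucuronate, the donor that glucuronosyltransferases use. In the proximal tubule, ABCB1, ABCC2, ABCC4 and ABCG2 are known at the apical membrane, which faces the urine, and ABCC3 is known in epithelia at the basolateral membrane. EPHX1, UGDH, PIR and several ABCC genes are known targets of NRF2, a transcription factor that answers oxidants and electrophiles by binding antioxidant response elements.

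The bases before the start sites of 5 members are shown because these genes moved in opposite directions under Di and because the core of the antioxidant response element was found in only 2 of them. RefSeq start sites on GRCh38.p14 were at hand for 8 of the 10 genes, all but ABCC1 and ABCC3, with 15 windows among them, and each window shown holds the 250 bases before a start. They lie at chr1:225825104-225825353 on the plus strand for EPHX1, chr13:95301452-95301701 on the minus strand for ABCC4, chr7:87600885-87601134 on the minus strand for ABCB1, chrX:15493334-15493583 on the minus strand for PIR and chr4:39527440-39527689 on the minus strand for UGDH. Capitals mark matches on either strand to the antioxidant response element core TGACNNNGC, the CCAAT box CCAAT and the GC box GGGCGG.
EPHX1: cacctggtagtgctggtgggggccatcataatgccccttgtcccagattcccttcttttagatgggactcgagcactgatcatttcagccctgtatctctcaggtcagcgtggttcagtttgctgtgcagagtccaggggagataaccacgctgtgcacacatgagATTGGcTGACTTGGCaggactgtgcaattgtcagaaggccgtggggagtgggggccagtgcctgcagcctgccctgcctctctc
ABCC4: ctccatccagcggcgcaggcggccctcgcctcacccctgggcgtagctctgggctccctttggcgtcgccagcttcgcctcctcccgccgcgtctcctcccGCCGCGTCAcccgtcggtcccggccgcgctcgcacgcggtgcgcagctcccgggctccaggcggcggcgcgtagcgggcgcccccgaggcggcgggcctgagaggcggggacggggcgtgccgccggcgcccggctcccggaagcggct
ABCB1: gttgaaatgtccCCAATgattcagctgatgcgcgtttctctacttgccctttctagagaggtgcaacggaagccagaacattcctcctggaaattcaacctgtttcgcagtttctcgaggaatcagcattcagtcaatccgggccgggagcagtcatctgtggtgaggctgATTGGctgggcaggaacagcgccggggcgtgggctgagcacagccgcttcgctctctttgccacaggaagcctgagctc
PIR: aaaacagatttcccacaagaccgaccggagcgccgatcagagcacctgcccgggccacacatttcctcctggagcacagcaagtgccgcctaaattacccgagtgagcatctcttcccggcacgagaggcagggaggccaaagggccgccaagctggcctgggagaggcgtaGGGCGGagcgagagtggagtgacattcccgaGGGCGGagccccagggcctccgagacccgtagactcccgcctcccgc
UGDH: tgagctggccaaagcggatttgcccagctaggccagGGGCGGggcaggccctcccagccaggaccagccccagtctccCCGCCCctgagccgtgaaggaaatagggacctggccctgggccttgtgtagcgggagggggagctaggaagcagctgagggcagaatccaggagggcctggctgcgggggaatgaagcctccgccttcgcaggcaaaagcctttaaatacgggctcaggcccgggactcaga

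The antioxidant response element core was found in 2 of the 15 windows, and 10.9% of 35116 windows of all RefSeq genes held it. Counted from the start, it lay at -78 to -70 in this EPHX1 window, reading TGACTTGGC, and at -149 to -141 in the ABCC4 window, where GCCGCGTCA is the core on the opposite strand. The other 2 EPHX1 windows did not hold it. This ABCB1 window held 2 CCAAT boxes, at -238 to -234 and at -79 to -75, and the other ABCB1 window held none of the motifs. At least 1 CCAAT box was found in 3 of the 15 windows and in 32% of all windows. The PIR window held 2 GC boxes and the UGDH window 2. At least 1 GC box was found in 7 of the 15 windows and in 42.6% of all windows. The AP-1 site TGACTCA was found in 0 of the 15 windows and in 4.20% of all. Within a window no match overlapped another, and a match describes letters, not binding. Some ABCG2 windows overlap, and the same 2 GC boxes are counted in 2 of them.

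Of the 10 genes, 8 passed the level filter, a log2 value above 4 in at least 3 of the 12 arrays, and were tested among 10626 genes. ABCC2 exceeded 4 in 2 arrays and ABCG2 in 0, so these are given as values. Arrays within a group correlated at 0.995 to 0.998 across probe sets, and array medians lay between 2.97 and 3.06 (log2). The array farthest from the mean of its group was replicate 2 of Di at 12 h (root mean square distance 0.188, log2). Of 13 markers of proximal tubule function, 1 (DPP4) passed the level filter, while LRP2, CUBN, AQP1 and the organic anion carriers SLC22A6 and SLC22A8 lay below it. The summed linear level of this list was 1613 to 1852 in Di at 48 h and 2129 to 2392 in control at 48 h. Of 8 renal epithelial genes on the array, 7 passed, among them PAX8, KRT8 and KRT18, and 0 of 8 endothelial and leukocyte markers did. Among 6 markers of other kidney segments on the array, 1 (AQP2) passed. The summed linear level of those 6 was 67 to 84 in Di at 48 h and 64 to 78 in control at 48 h. Of 7 fibroblast markers, COL1A1, DCN and LUM passed and PDGFRA, PDGFRB, COL1A2 and COL3A1 did not. The fibroblast list's summed linear level was 690 to 876 in Di at 48 h and 1372 to 1464 in control at 48 h, and that of the renal epithelial list 14164 to 15414 in Di at 48 h and 18973 to 21560 in control at 48 h. The part of these lists in the results was not tested. HK-2 is a single line, and in its bulk RNA fewer cells that express these genes and less of their RNA per cell cannot be told apart.

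After 48 h of Di, 5 of the 8 tested genes rose, all at least 2-fold, 2 fell and 1 did not pass the test. The genes that rose were PIR (7.38-fold), EPHX1 (4.81-fold), the conjugate pumps ABCC3 (3.51-fold) and ABCC1 (2.67-fold), and UGDH (2.11-fold). The genes that fell were ABCB1, which encodes P-glycoprotein (2.27-fold), and ABCC4 (1.39-fold). The background was high: 50.9% of all 10626 genes passed at 48 h (22.9% upward and 28% downward), and 4.34% rose by 2-fold or more. The median log2 change was 1.25 over the 8 genes and -0.019 over all genes. As the genes were chosen with earlier results of these data known, this comparison with all genes is a description and not a test. Calls here and below are limma tests with Benjamini-Hochberg adjustment over all 10626 genes at an adjusted p under 0.05, a log2 change is followed by its standard error, and a mean by the SD of 3 arrays.

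**Figure D1:**
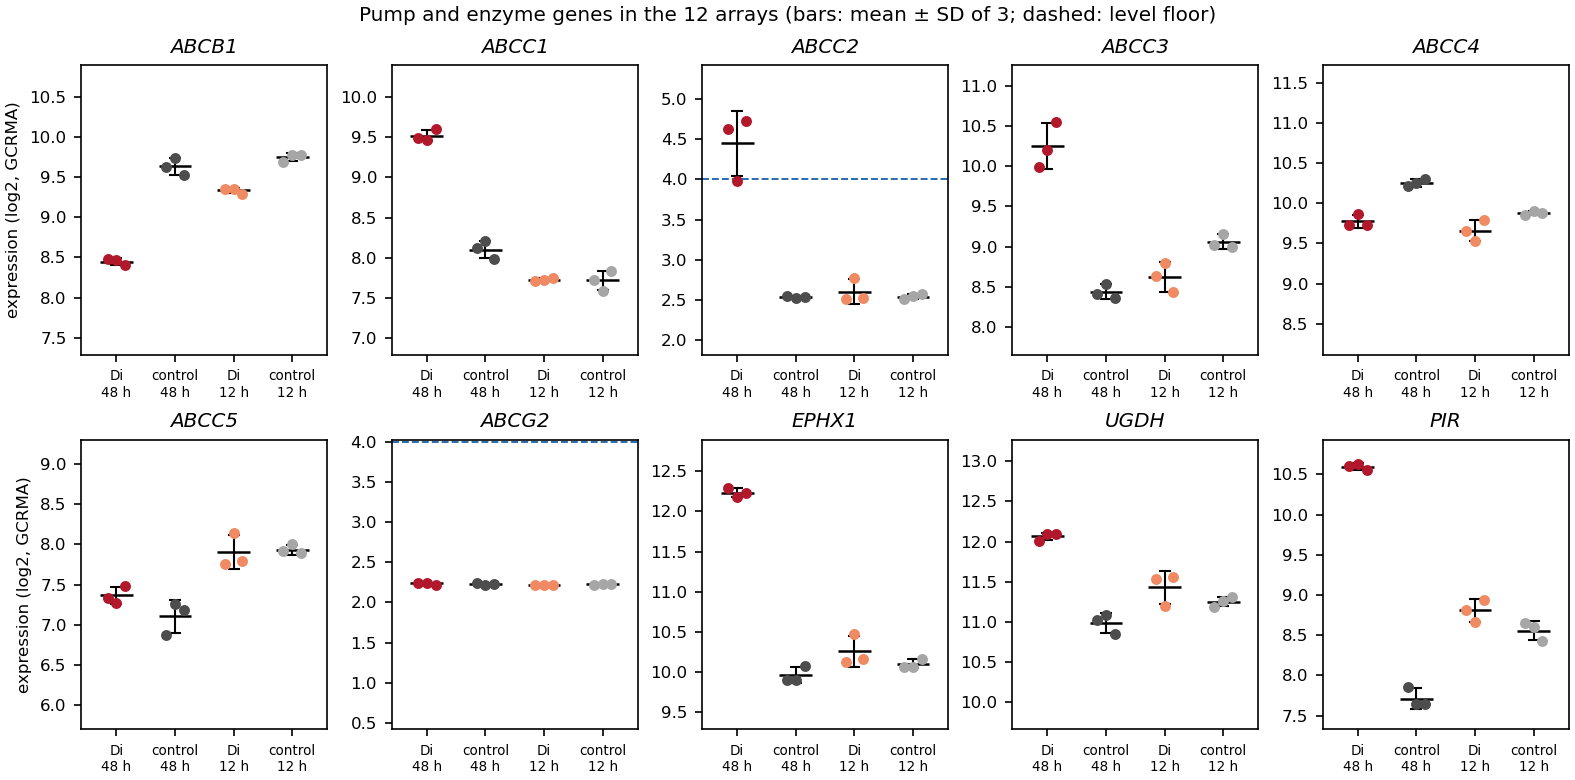
Expression of the 10 genes on the log2 GCRMA scale, with 1 point per array, a bar for the mean of 3 arrays and whiskers for the SD; each panel spans the same number of log2 units, so steps can be compared between genes but levels cannot, and the dashed line is the level floor of 4. The 3 arrays of Di at 48 h lay above all others for PIR, EPHX1, UGDH, ABCC1, ABCC2 and ABCC3 and below all others for ABCB1.

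Among the pumps, ABCB1 exports a wide range of hydrophobic drugs. Its log2 values were 8.48, 8.47 and 8.40 in Di at 48 h, against 9.63, 9.74 and 9.53 in control at 48 h. The groups did not overlap, and the change was -1.18 ± 0.0682 (adjusted p = 1.01e-07), the 610th largest decrease of 10626 genes. At 12 h the values were 9.35, 9.35 and 9.29 in Di, against 9.69, 9.78 and 9.77 in control. All 3 Di arrays again lay below all 3 controls, by -0.41 ± 0.0682 (1.33-fold, adjusted p = 0.00459). The second probe set of ABCB1 also fell at 48 h, by -1.76 ± 0.261 (adjusted p = 0.000226 over 21715 probe sets, of which 46% passed), with more spread in Di at 48 h (5.77, 6.26 and 6.77) than in control at 48 h (8.10, 8.11 and 7.87). At 12 h this second probe set stood at -0.58 ± 0.261 and did not pass (adjusted p = 0.17). Its 12 h values were 8.05, 7.09 and 7.77 in Di, against 8.18, 8.35 and 8.13 in control.

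ABCC1, or MRP1, carries glutathione and glucuronide conjugates and leukotriene C4 out of cells. Its values were 9.49, 9.47 and 9.60 in Di at 48 h, against 8.12, 8.21 and 7.99 in control at 48 h, a rise of 1.42 ± 0.0806 (adjusted p = 9.18e-08). At 12 h they were 7.71, 7.72 and 7.75 in Di, against 7.73, 7.59 and 7.83 in control. The 12 h groups overlapped, and the 95% confidence interval of the 12 h change ran from -0.17 to 0.18. The other probe set of ABCC1, at a lower signal, rose by 1.31 ± 0.143 at 48 h (adjusted p = 2.32e-05) and stood at 0.044 ± 0.143 at 12 h (adjusted p = 0.88).

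ABCC3, or MRP3, is known for exporting glucuronides and bile salts. Its values were 9.99, 10.20 and 10.55 in Di at 48 h, against 8.41, 8.54 and 8.36 in control at 48 h, a rise of 1.81 ± 0.136 (adjusted p = 8.52e-07). At 12 h the values were 8.63, 8.80 and 8.43 in Di, against 9.02, 9.16 and 9.00 in control. The Di arrays at 12 h all lay below the controls, but the change of -0.44 ± 0.136 did not pass (adjusted p = 0.0542). All 5 probe sets of ABCC3 rose at 48 h, by 0.71 to 1.82 on the log2 scale, and all 5 stood below 0 at 12 h (-0.44 to -0.13) without passing. The smallest 48 h rises, 0.71 and 1.02, were those of the 2 probe sets with the suffix _x_at.

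ABCC4, or MRP4, exports cyclic nucleotides, urate and other organic anions. Its values were 9.73, 9.87 and 9.73 in Di at 48 h, against 10.21, 10.25 and 10.30 in control at 48 h, a fall of -0.47 ± 0.0773 (adjusted p = 0.000352) with no overlap. At 12 h they were 9.65, 9.53 and 9.79 in Di, against 9.85, 9.90 and 9.88 in control (-0.22 ± 0.0773, adjusted p = 0.0849). ABCC4 has 4 probe sets, of which 3 passed the level filter, and the 2 others that passed differed from this one. At 48 h they stood at -0.32 ± 0.239 and -0.19 ± 0.156 and did not pass (adjusted p = 0.315 and 0.359). At 12 h the probe set that also had the lower signal rose, by 0.65 ± 0.156 (adjusted p = 0.0239), with 6.63, 6.60 and 6.59 in Di and 6.30, 5.74 and 5.83 in control, while the third stood at 0.088 ± 0.239 (adjusted p = 0.853). The direction of ABCC4 at 12 h therefore depended on the probe set, and its fall at 48 h was called in 1 of the 3 that passed the filter.

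ABCC5, or MRP5, exports cyclic nucleotides and nucleotide analogues. Its values were 7.34, 7.27 and 7.48 in Di at 48 h, against 6.87, 7.26 and 7.19 in control at 48 h, and the change of 0.26 ± 0.123 did not pass (adjusted p = 0.101, 95% confidence interval -0.011 to 0.53). At 12 h the values were 7.76, 8.14 and 7.80 in Di, against 7.92, 8.0 and 7.89 in control, with a change of -0.031 ± 0.123 (adjusted p = 0.893, interval -0.30 to 0.24). Its other probe sets stood at -0.00041 ± 0.0747 and -0.68 ± 0.307 at 48 h and did not pass (adjusted p = 0.997 and 0.0946). The 48 h groups of the main probe set did not overlap, as was the case for 61.6% of all tested genes. Without replicate 2 of Di at 12 h, which adds only to the estimate of spread, the same change passed (adjusted p = 0.049).

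ABCC2, or MRP2, known for exporting conjugated bilirubin from liver cells, had 4.63, 3.98 and 4.73 in Di at 48 h, against 2.55, 2.52 and 2.54 in control at 48 h. At 12 h it had 2.51, 2.78 and 2.52 in Di, against 2.51, 2.55 and 2.57 in control. Only replicates 1 and 3 of Di at 48 h exceeded the floor, so the rise at 48 h is bounded at 1.36-fold or more, the mean of Di against the floor. With no level filter, among 19775 genes, its fitted change was 1.91 ± 0.167 (adjusted p = 2.13e-05), which rests on values below the floor and is not a measured size. ABCG2, or BCRP, which exports urate and many drugs, lay between 2.21 and 2.24 in all 12 arrays, below the floor, and no change in it was detectable.

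**Figure D2:**
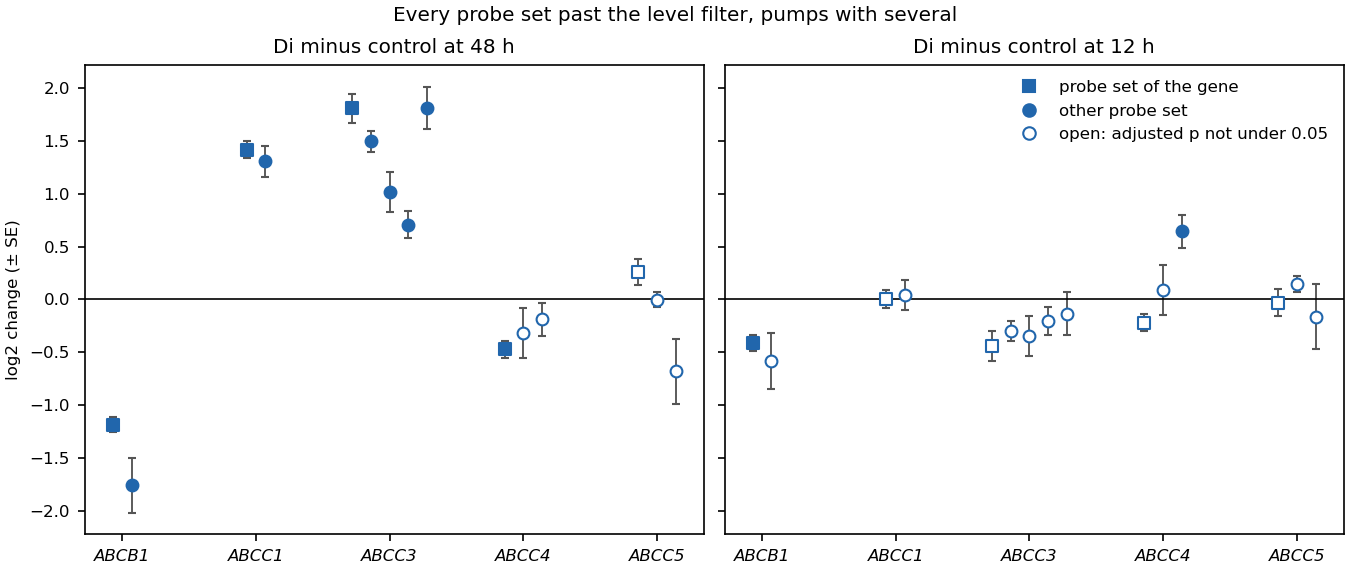
Log2 change under Di at 48 h (left) and at 12 h (right) for every probe set past the level filter of the 5 pumps that have more than 1, with standard errors; squares are the probe sets that represent the genes, and open symbols did not pass. The probe sets of ABCB1, ABCC1 and ABCC3 share a sign at 48 h, while those of ABCC4 at 12 h and ABCC5 at 48 h lie on both sides of 0.

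Among the enzymes, EPHX1 encodes microsomal epoxide hydrolase, which turns reactive epoxides into diols. Its values were 12.29, 12.18 and 12.23 in Di at 48 h, against 9.90, 9.91 and 10.08 in control at 48 h, a rise of 2.27 ± 0.0953 (adjusted p = 8.73e-09), the 70th largest increase. At 12 h the values were 10.13, 10.48 and 10.17 in Di, against 10.07, 10.07 and 10.17 in control. These groups overlapped, and the change of 0.15 ± 0.0953 did not pass (adjusted p = 0.312). Without replicate 2 of Di at 12 h, the highest of these arrays, it was 0.045 (adjusted p = 0.758).

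UGDH had 12.01, 12.09 and 12.09 in Di at 48 h, against 11.02, 11.09 and 10.85 in control at 48 h. The rise of 1.08 ± 0.101 was the smallest of the 5 (adjusted p = 4.88e-06), with no overlap. At 12 h it had 11.54, 11.20 and 11.56 in Di, against 11.19, 11.26 and 11.31 in control (0.18 ± 0.101, adjusted p = 0.262). Replicates 1 and 3 of Di at 12 h lay above all controls and replicate 2 among them.

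PIR had 10.61, 10.63 and 10.55 in Di at 48 h, against 7.86, 7.64 and 7.64 in control at 48 h. This rise of 2.88 ± 0.0952 was the largest of the members and the 41st largest of all 10626 genes (adjusted p = 1.37e-09). At 12 h it had 8.82, 8.66 and 8.94 in Di, against 8.65, 8.60 and 8.43 in control. The 3 Di arrays at 12 h lay just above the controls, and the change of 0.25 ± 0.0952 did not pass (adjusted p = 0.103).

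At 12 h, then, 1 of the 8 tested members passed, ABCB1, and it fell, a call that its second probe set did not share. Of all genes, 13.7% passed at 12 h (3.9% upward and 9.78% downward, so that 28.5% of the calls were upward, against 54.3% with arrays centred on the median of the genes tested), and the median log2 change was -0.012 over the 8 members and -0.061 over all genes. In 4 members (ABCB1, ABCC3, ABCC4 and PIR) the 12 h groups did not overlap, against 34.8% of all genes. The 12 h calls depended on single arrays. Without replicate 2 of Di at 12 h, ABCC3 (-0.53, adjusted p = 0.0394), UGDH (0.30, adjusted p = 0.0387) and PIR (0.33, adjusted p = 0.0489) passed as well, and without replicate 3 of Di at 12 h ABCC4 did (-0.29, adjusted p = 0.0485). Without replicate 1 or 3 of Di at 48 h, arrays that do not enter the 12 h means, ABCC3 passed with the same change of -0.44 (adjusted p = 0.0336 and 0.0253). Over 21 alternative analyses the adjusted p ran from 0.0253 to 0.165 for ABCC3, 0.0485 to 0.392 for ABCC4, 0.0387 to 0.53 for UGDH and 0.0327 to 0.286 for PIR, and ABCB1 was called in 21 of 21. The gap between the 3' and 5' actin probe sets, which widens as RNA degrades, averaged 1.22 ± 0.239 for Di at 12 h and 1.71 ± 0.178 for its controls (log2, SD, n = 3 each). A two-sided exact permutation test gave p = 0.1, and 3 against 3 arrays can give no smaller value. Its part in the 12 h results was not tested.

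**Figure D3:**
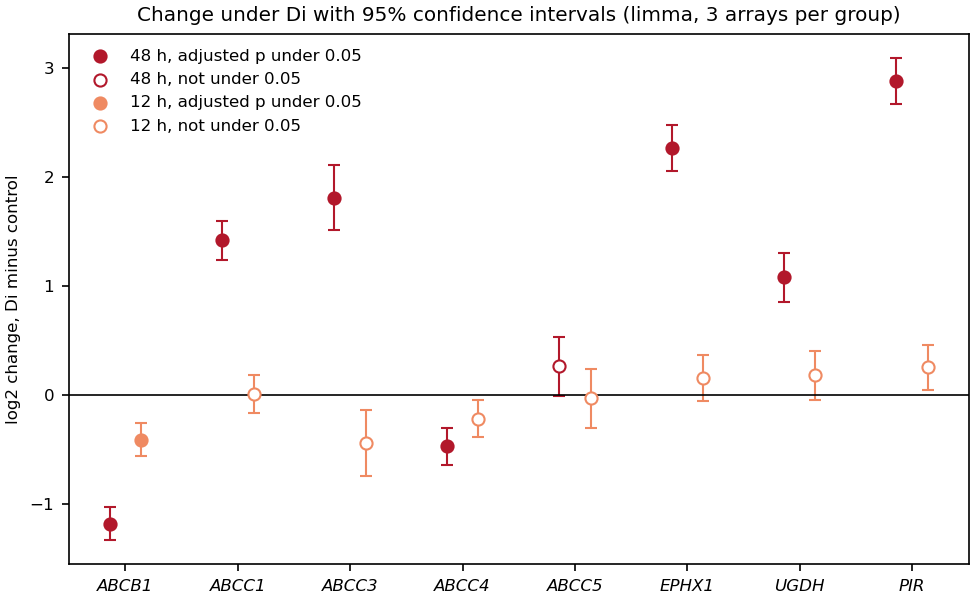
Log2 change under Di at 48 h and at 12 h for the 8 tested members, with 95% confidence intervals from the limma fit; filled points passed at an adjusted p under 0.05 and open points did not. At 48 h the changes run from -1.18 (ABCB1) to 2.88 (PIR), and at 12 h ABCB1 alone is filled.

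The difference between the changes at 48 h and at 12 h was tested directly and passed in 6 of the 8 members, 5 upward and 1 downward, where 38.3% of all genes passed (19.8% upward and 18.5% downward). It was 2.63 ± 0.135 for PIR, 2.25 ± 0.193 for ABCC3, 2.11 ± 0.135 for EPHX1, 1.41 ± 0.114 for ABCC1 and 0.90 ± 0.143 for UGDH (adjusted p between 1.45e-07 and 0.000546). ABCB1 fell further at 48 h than at 12 h, by -0.77 ± 0.0964 (adjusted p = 0.000106). ABCC4 (-0.26 ± 0.109, adjusted p = 0.0887) and ABCC5 (0.29 ± 0.175, adjusted p = 0.214) did not pass. The difference for ABCC4 passed in 4 of 20 alternatives: without replicate 2 of Di at 12 h (-0.32, adjusted p = 0.0247), with quantile normalisation (-0.30, adjusted p = 0.0398), with arrays centred on the median of the genes tested (-0.30, adjusted p = 0.0417) and with its probe sets averaged (-0.50, adjusted p = 0.044).

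Vehicle cultures also moved with time. Of the 8 members, 6 differed between control at 48 h and control at 12 h, 2 higher and 4 lower at 48 h, and 52.9% of all genes did (21.9% higher and 31% lower, so that 41.3% of the calls were higher, against 51.5% with that centring). In 6 members these groups did not overlap, against 65.1% of all genes. The fibroblast list's summed linear level moved with them, at 1372 to 1464 in control at 48 h and 2832 to 3309 in control at 12 h, and so did the actin gap, at 1.19 to 1.43 in control at 48 h and 1.55 to 1.90 in control at 12 h (log2). The proximal tubule list's summed linear level was higher at the later time, at 2129 to 2392 in control at 48 h and 1421 to 1752 in control at 12 h. The part of these shifts was not tested. PIR was lower in control at 48 h (7.71 ± 0.129) than in control at 12 h (8.56 ± 0.116), by -0.85 ± 0.0952 (adjusted p = 2.31e-05), and ABCC5 by -0.83 ± 0.123 (adjusted p = 0.000186). ABCC3 was lower by -0.62 ± 0.136 (adjusted p = 0.00258), and UGDH by -0.26 ± 0.101 (adjusted p = 0.0461). ABCC1 was higher by 0.38 ± 0.0806 (adjusted p = 0.00198) and ABCC4 by 0.37 ± 0.0773 (adjusted p = 0.0018). ABCB1 (-0.11, adjusted p = 0.193) and EPHX1 (-0.14, adjusted p = 0.244) did not pass. The call of UGDH held in 7 of 20 alternatives (adjusted p 0.00908 to 0.163). It ended without any 1 replicate of control at 12 h (-0.29, -0.26 and -0.24, adjusted p = 0.0622, 0.0969 and 0.124), without replicate 1 or 3 of control at 48 h (-0.28 and -0.20, adjusted p = 0.0785 and 0.163) and without any 1 replicate of Di at 48 h (-0.26, adjusted p = 0.0539 to 0.06). When all kept probe sets of a gene were averaged, ABCC3 (-0.24, adjusted p = 0.11) and ABCC5 (-0.27, adjusted p = 0.0656) did not pass either, and ABCC4 stood at 0.82. These controls are shared with the Di comparisons, so the changes are not independent of them.

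The order of the 4 groups therefore differed between members. EPHX1, UGDH and PIR stood highest in Di at 48 h, followed by Di at 12 h, control at 12 h and control at 48 h. The middle groups overlapped for EPHX1 and UGDH, the lowest groups overlapped for EPHX1 only, and PIR had all 4 groups apart. ABCC1 was highest in Di at 48 h and next in control at 48 h, and its 12 h groups overlapped below them. ABCC3 was highest in Di at 48 h and next in control at 12 h, while Di at 12 h and control at 48 h overlapped. ABCB1 stood highest in the control groups, which overlapped, then in Di at 12 h and lowest in Di at 48 h. ABCC4 was highest in control at 48 h, and its other neighbours in the order overlapped. By its main probe set, ABCC5 was higher in both 12 h groups, which overlapped, than in Di at 48 h, and lowest in control at 48 h. From control at 12 h to control at 48 h its other probe sets changed by -0.064 ± 0.0747 and 0.074 ± 0.307. Neither passed (adjusted p = 0.515 and 0.863).

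Genes whose profile over the 12 arrays was most like a member's are given by Pearson's r, as a description over arrays that fall into 4 groups. The profile of PIR was most like those of PPIF, a regulator of the mitochondrial permeability pore (r = 0.995), and NQO1, a quinone reductase (0.993). ABCC1 was most like the uridine phosphorylase UPP1 (0.993) and GCLC, the catalytic subunit that starts glutathione synthesis (0.992). EPHX1 was most like the small GTPases RRAS2 (0.995) and RND3 (0.994), and UGDH most like SPSB1 (0.987) and BCL10 (0.978). ABCC3 was most like CCDC22 and the cholesterol exporter ABCA1 (0.969 each). Of the genes that fell, ABCB1 was most like the proline dehydrogenase PRODH (0.995) and the adhesion receptor ADGRG6 (0.992), and ABCC4 most like TRAK1 (0.966) and MBLAC2 (0.956). Such values were common for some members: 257 genes exceeded an r of 0.95 with ABCC1, 201 with EPHX1, 171 with ABCB1, 79 with PIR, 40 with UGDH, 22 with ABCC3 and 7 with ABCC4.

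The genes around these members were read from 7 further lists, chosen with earlier results of these data known. They hold 137 genes, of which 113 were on the array and 59 passed the level filter. In these lists 15 rose at 48 h, 28 fell and 16 did not pass, where 22.9% of all 10626 genes rose and 28% fell. Of other pumps of ABC subfamilies B, C and G, 5 of 19 on the array passed the level filter, 3 rose and 2 fell (median log2 change 0.45). TAP2, part of the peptide transporter of antigen presentation, rose 4.05-fold (2.02 ± 0.109, adjusted p = 6.55e-08) and the porphyrin transporter ABCB6 2.13-fold, while mitochondrial ABCB10 fell 1.66-fold and ABCC10, or MRP7, 1.48-fold. Of 8 organic ion carriers, 2 rose and 2 fell (median 0.16). SLCO4C1, an organic anion carrier of the kidney, fell 4.24-fold (-2.09 ± 0.145, adjusted p = 4.35e-07) and the prostaglandin carrier SLCO2A1 2.30-fold. SLC67A1, earlier named SLC22A18, rose 1.62-fold and the carnitine carrier SLC22A5 1.31-fold.

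The list around glucuronidation and UDP-glucuronate held 26 other genes, of which 16 were on the array and 8 passed the level filter. No UGT1A gene was among these 8, and not all of the 8 carry out glucuronidation or use UDP-glucuronate. At 48 h 1 of them rose and 5 fell (median -0.64), while UGDH rose. UGT2B28, a glucuronosyltransferase of steroids with close relatives that a probe may share, fell 3.36-fold (-1.75 ± 0.12, adjusted p = 3.88e-07), UGT8, which makes galactosylceramide, 3.17-fold, and the lysosomal glucuronidase GUSB 1.91-fold. SLC35D1, which carries UDP-glucuronate into the endoplasmic reticulum, fell 2.32-fold (4.60 ± 1.19 in Di and 5.82 ± 0.283 in control at 48 h, adjusted p = 0.0366). That call held in 15 of 21 alternatives (adjusted p 0.0136 to 0.108) and ended without replicate 1 or 2 of control at 48 h (-1.17 and -1.10) or replicate 1 of control at 12 h (-1.22). Without replicate 1 of Di at 48 h the change was -0.53 (adjusted p = 0.0194). Of 9 sulfation genes, 1 rose and 6 fell (median -0.79). PAPSS1 and PAPSS2, which make the sulfate donor PAPS, fell 2.11-fold and 2.04-fold, BPNT1, which breaks down its by-product, fell 2.06-fold, and TPST2, a sulfotransferase of protein tyrosines, rose 2.32-fold.

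Of 15 glutathione, methyl and acetyl transferases, 3 rose and 8 fell at 48 h (median -0.35). GSTA4, which conjugates lipid peroxidation products, fell 3.31-fold, the histamine methyltransferase HNMT 2.84-fold and GSTT1 2.64-fold, while the microsomal transferase MGST1 rose 2.05-fold. Of 9 other epoxide and ester hydrolases on the array, 4 passed the level filter, and all 4 fell (median -0.79), while EPHX1 rose. They were EPHX4 (2.24-fold), the paraoxonase PON2 (1.82-fold), the leukotriene A4 hydrolase LTA4H (1.63-fold) and the carboxylesterase CES2 (1.48-fold). Of 10 transcription factors that sense xenobiotics and their partners, 5 rose and 1 fell (median 0.40). MAFF and MAFG, small partners of NRF2 on DNA, rose 4.04-fold and 3.43-fold, KEAP1, which holds NRF2 in check, rose 1.99-fold, and the nuclear receptor partner RXRA fell 1.72-fold. Beyond the genes named for the size of their change, NFE2L2, which encodes NRF2, did not pass (0.045 ± 0.123, adjusted p = 0.795). BACH1 rose by 0.73 ± 0.105 (adjusted p = 0.000141), and AHR and ARNT did not pass (adjusted p = 0.225 and 0.308). When all kept probe sets of a gene were averaged, the changes of ABCC10, GUSB, HNMT, RXRA and CES2 were -0.36, -0.37, -0.77, -0.32 and -0.35, against -0.57, -0.93, -1.51, -0.78 and -0.57 with the chosen probe set, all still called.

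**Figure D4:**
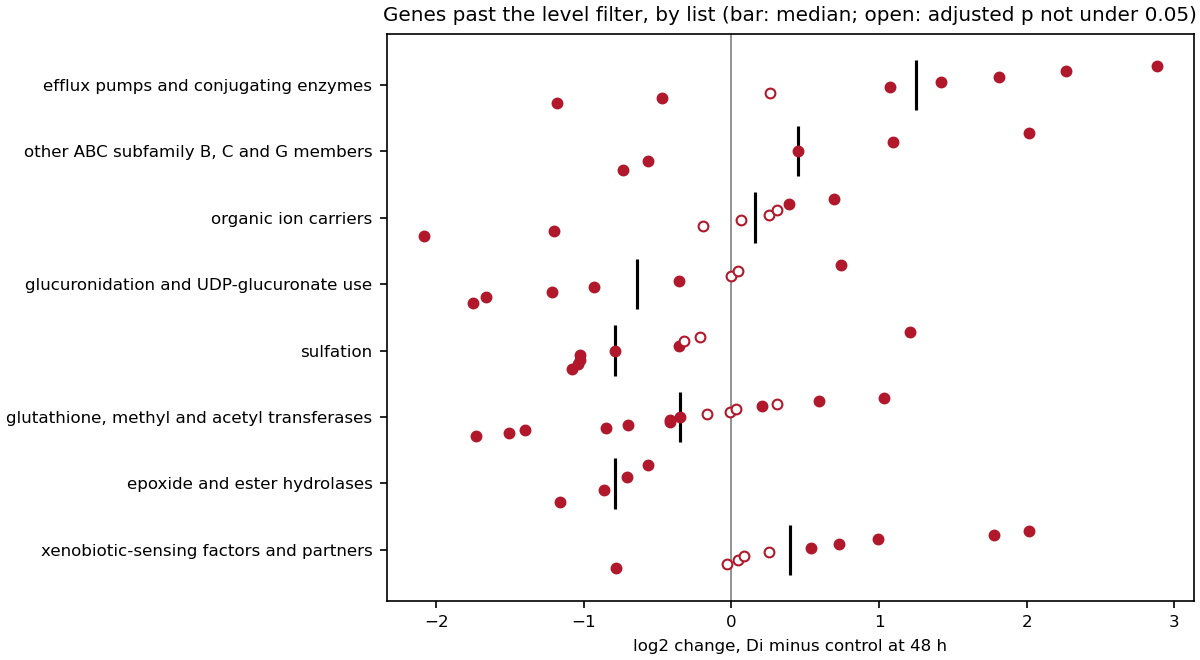
Log2 change under Di at 48 h for every gene past the level filter, by list, with a bar at each median; filled points passed at an adjusted p under 0.05. The row labelled efflux pumps and conjugating enzymes holds the 8 tested members, and its median of 1.25 takes in EPHX1, UGDH and PIR. The pumps in it run from -1.18 (ABCB1) to 1.81 (ABCC3). The lists of sulfation (-0.79), epoxide and ester hydrolases (-0.79) and glucuronidation (-0.64) have medians below 0.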

How the data were processed

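RNA of HK-2 cells was made into biotin-labelled cRNA and measured on Affymetrix arrays. The authors deposited log2 expression values, made with GCRMA per the submitters' processing notes (version and settings not given in the sources used here); GCRMA corrects background, normalises and summarises probes. Arrays carry no counting depth, and 3 arrays per group limit the precision. Of 54675 probe sets, 41097 were paired with 1 gene, 1801 with several (not named) and 11777 with none, and symbols were updated through RefSeq gene IDs. The level filter (log2 above 4 in at least 3 arrays) left 10626 genes. On the 12 arrays together, limma 3.58.1 (R 4.3.3) fitted group means, after a check on simulated data. Actin used an exact permutation test (scipy 1.17.1), and figures matplotlib 3.10.9. The members, gene lists and marker lists were chosen with earlier results of these data known. Named genes were all members, up to 4 called, non-overlapping genes per list with the largest 48 h change, and 2 most similar genes per called member. A few further list genes are named where the text says so. Alternatives changed the filter, moderation, normalisation, probe sets, samples, replicate block and left-out array.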

Additional observations from a re-analysis of the deposited data

Results flagged for a closer look

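In 6 members the Di change at 48 h differed from that at 12 h by a test of the difference itself (limma, adjusted over 10626 genes). The differences, 48 h minus 12 h on the log2 scale, were 2.63 for PIR, 2.25 for ABCC3, 2.11 for EPHX1, 1.41 for ABCC1, 0.90 for UGDH and -0.77 for ABCB1. Each was called in 20 of 20 alternatives. For ABCC3 the estimates lay on opposite sides of 0, at 1.81 at 48 h and -0.44 at 12 h, and the 12 h value did not pass.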

How the results depend on the processing

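At 48 h, 7 to 8 members were called over 21 alternatives, and the 7 calls of the text held in each, the eighth call being ABCC2 with no filter or ABCC5 without replicate 2 of Di at 12 h (adjusted p = 0.049). The difference between times had 6 to 7 calls and the controls 4 to 6 over 20 alternatives. At 12 h the count of 1 became 2 with a floor of 6, with trend and robust moderation and with arrays centred on the median of the genes tested, an alternative chosen after seeing the data, and ran from 1 to 4 with 1 array left out. Signs that turned were all of members that had not passed. ABCC5 at 12 h stood at 0.015 with quantile normalisation, 0.055 with that centring, 0.040, 0.018 and 0.0020 without replicates 1 and 3 of Di and replicate 2 of control at 12 h, while leaving out replicate 2 of Di gave -0.15. ABCC1 at 12 h stood at -0.0031 and -0.055 without replicate 3 of Di and replicate 2 of control, while leaving out replicate 3 of control gave 0.063. With the mean of all probe sets ABCC4 stood at 0.17 at 12 h, and ABCC5 at -0.14 at 48 h and -0.12 for the difference. Over all genes, 1453 calls at 12 h fell to 575 with only the 12 h arrays and to 745 or 778 when replicate 2 or 3 of control at 12 h was left out, and that centring moved the share higher from 28.5% to 54.3%. Same-numbered Di and control arrays correlated at -0.264 to 0.154 in their deviations from group means, with 1 of 6 pairs over 0.1, and not every array was most like its own number, so the numbers were not read as pairs. With the replicate block 1, 7, 6 and 5 members were called at 12 h, at 48 h, for the difference and between controls. The causes of these shifts were not tested.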

Other observations

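Of the 59 genes in the lists around the members, 2 rose and 4 fell at 12 h, named here after their values were seen. Of all genes 3.9% rose and 9.78% fell at 12 h. The 6 list genes were MAFF (0.37 ± 0.0866, adjusted p = 0.0187) and the nicotinamide methyltransferase NNMT (0.28 ± 0.0796, adjusted p = 0.0441), which rose, and SLCO4C1 (-0.54 ± 0.145, adjusted p = 0.0321), UXS1, which turns UDP-glucuronate into UDP-xylose (-0.37 ± 0.0929, adjusted p = 0.0254), ARNT, the partner of the aryl hydrocarbon receptor (-0.27 ± 0.0647, adjusted p = 0.0212), and GUSB (-0.21 ± 0.0557, adjusted p = 0.0336), which fell. These limma calls at 12 h held in 16 of 21 alternatives for MAFF, 15 for UXS1, 13 for ARNT, 11 for SLCO4C1, 8 for GUSB and 6 for NNMT, with adjusted p up to 0.0774, 0.097, 0.386, 0.0934, 0.639 and 0.15 in that order. NNMT fell at 48 h, by -0.70 ± 0.0796 (adjusted p = 2.31e-05), and its difference between the times was -0.97 ± 0.113 (adjusted p = 6.08e-05).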
